A study of Mus musculus with 4 samples.

Results

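The Iroquois genes Irx1, Irx2, Irx3, Irx4 and Irx5 encode homeodomain transcription factors, and their transcripts were followed in hearts of mice without the microRNA miR-1. They were picked by gene name from the deposited tables, and all 5 were found among 22552 gene rows at each stage. Whole hearts were compared between mice without either miR-1 gene, miR-1-1 or miR-1-2 (double knockout, dKO), and control mice (dHET, littermates per the design text for P2.5), at postnatal day 2.5 (P2.5) and embryonic day 15.5 (E15.5). The mice carry the strain label Sv129 in both genotypes. There was 1 poly-A RNA library for each genotype and stage, so no value has a replicate error and no difference between genotypes could be tested. The column of the P2.5 control is headed hetero and that of the E15.5 control WT, while both samples are labelled dHET. The label dHET reads as double heterozygous, so the controls need not carry the full number of miR-1 gene copies. Whether a library came from 1 heart or from pooled hearts is not given in the sources used here.

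Iroquois proteins bind DNA through a homeodomain of the three-amino-acid-loop-extension (TALE) class and can repress or activate transcription. Their genes stand in a pair of clusters, Irx1, Irx2 and Irx4 in one and Irx3, Irx5 and Irx6 in the other. In the mouse heart Irx4 marks ventricular muscle, Irx3 is needed for rapid conduction through the ventricular conduction system, and Irx5 shapes the gradient of the potassium channel gene Kcnd2 across the ventricular wall. Irx5 has also been described in mouse heart as a target of miR-1, which binds the 3' UTR of messenger RNAs and lowers their level.

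Levels are FPKM, fragment numbers scaled to transcript length and library size, which allow different genes of a library to be compared. The scaling totals recovered from the values were 49900000 (dKO) and 44600000 (dHET) fragments at P2.5 and 104000000 (dKO) and 86500000 (dHET) at E15.5. With transcript lengths these correspond to between 616 and 7982 fragments for each Iroquois gene and library. At P2.5 the female transcript Xist was at 50.7 FPKM in dKO and 0.101 in dHET and the Y-linked Eif2s3y at 0.0113 in dKO and 36.1 in dHET, so genotype and sex cannot be told apart at this stage. At E15.5 Eif2s3y was at 25.1 FPKM in dKO and 28.6 in dHET. Heart muscle genes were abundant in each library (Tnnt2 5545 in dKO and 3314 in dHET at P2.5, 2279 in dKO and 2274 in dHET at E15.5). Markers of lung epithelium, liver and thymus, organs near the heart, were at most 0.650 FPKM in any library.

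Irx4 was the most abundant Iroquois transcript in all 4 libraries. It had 53.9 FPKM in the dKO and 41.2 in the dHET heart at P2.5, and 29.5 in the dKO and 25.7 in the dHET heart at E15.5. This placed it above 94.9% (dKO) and 93.7% (dHET) of the genes with a value above 0 at P2.5, and above 91.3% (dKO) and 89.4% (dHET) at E15.5. Irx4 alone made up 52.9% of the summed FPKM of the 5 genes in dKO and 55.1% in dHET at P2.5, and 49.7% in dKO and 47.5% in dHET at E15.5.

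Irx3 came second in every library, with 22.7 FPKM in dKO and 13.3 in dHET at P2.5, and 10.8 in dKO and 8.30 in dHET at E15.5. Irx4 thus stood 2.37-fold (dKO) and 3.09-fold (dHET) above Irx3 at P2.5, and 2.75-fold (dKO) and 3.10-fold (dHET) above it at E15.5. In the dHET hearts this ratio was nearly the same at both stages.

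Irx5, Irx1 and Irx2 lay close together at the lower end. Irx5 had 9.56 FPKM in dKO and 6.87 in dHET at P2.5, and 7.21 in dKO and 6.75 in dHET at E15.5. Irx1, which in mouse is expressed in the ventricular septum, had 8.15 in dKO and 6.70 in dHET at P2.5, and 5.59 in dKO and 6.74 in dHET at E15.5. Irx2, which shares that septal domain, had 7.48 in dKO and 6.62 in dHET at P2.5, and 6.29 in dKO and 6.64 in dHET at E15.5. The highest and the lowest of these 3 genes differed by 1.04-fold in the P2.5 dHET library and by 1.02-fold in the E15.5 dHET library, so their order there carries no weight. In the dKO libraries they were spread over 1.28-fold at P2.5 and 1.29-fold at E15.5, with Irx5 on top in both. Irx6, the remaining gene of the family and no member of the set, was near 0 at P2.5 (0.00842 FPKM in dKO and 0.00942 in dHET, about 1 fragment in each) and at 0.311 FPKM in dKO and 0.442 in dHET at E15.5.

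**Figure D1:**
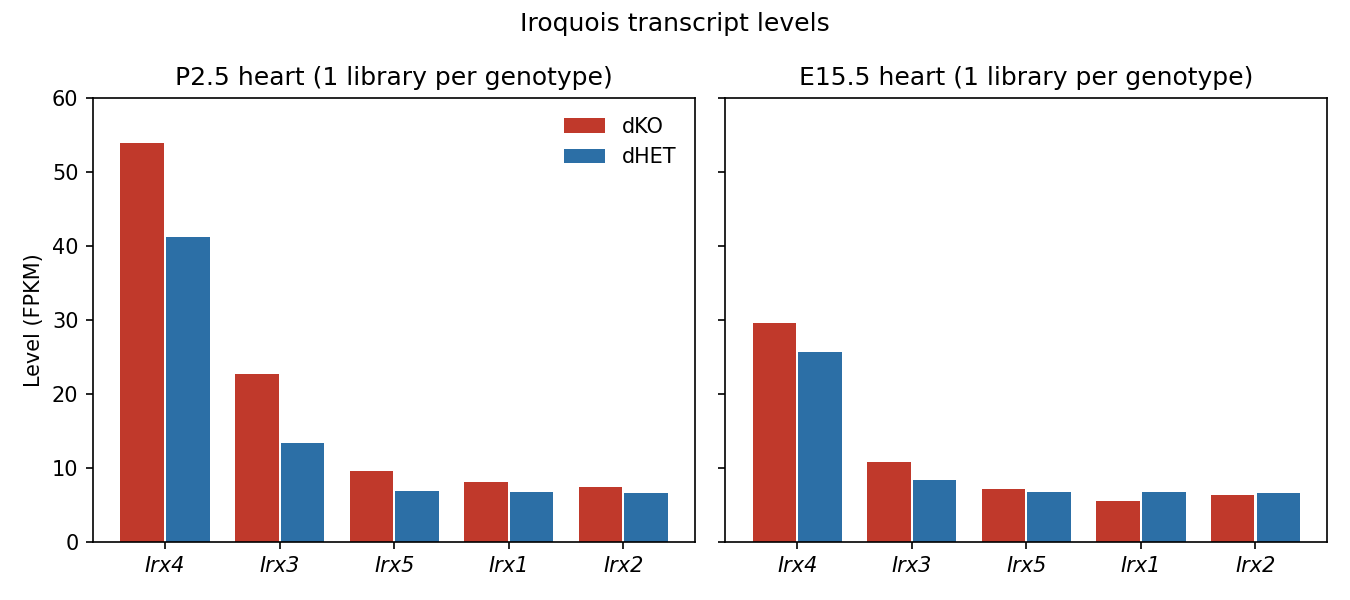
Bars show the level in FPKM of Irx4, Irx3, Irx5, Irx1 and Irx2 in the dKO (red) and dHET (blue) library at P2.5 (left panel) and E15.5 (right panel), with 1 library per bar and no error. Irx4 is the tallest pair in both panels, at 53.9 FPKM in dKO and 41.2 in dHET at P2.5, and the dKO bars of Irx1 and Irx2 are above the dHET bars at P2.5 and below them at E15.5.

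The first comparison asked how the Iroquois transcripts differed between dKO and dHET newborn hearts. All 5 were higher in the P2.5 dKO library, and Irx3 stood out among them. The change of a gene is given as log2((FPKM dKO + 1)/(FPKM dHET + 1)). It was 0.73 for Irx3, 0.42 for Irx5, 0.38 for Irx4, 0.25 for Irx1 and 0.15 for Irx2, although those of Irx1 and Irx2 turned negative (-0.069 and -0.035) after adjustment for base composition. The summed level of the 5 genes was 102 FPKM in dKO and 74.7 in dHET, a ratio of 1.36.

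Irx3 was the only one of the 5 to pass 1.5-fold on the higher side at P2.5, and none did once GC content and length were adjusted for (Irx3 0.42). A total of 8197 genes reached 5 FPKM in one or both P2.5 libraries (the counted genes), and 3.59% of them passed 1.5-fold on the higher side. With a minimum of 1 FPKM this share was 3.4%. The change of Irx3 was exceeded by 140 counted genes. None of the 5 was past 1.5-fold on the lower side, where 1.15% of counted genes were. The median change was 0.38 over the 5 genes and 0.083 over the counted genes, 63.2% of which had a change above 0 (60.7% with the minimum of 1 FPKM). Most genes thus share the direction of the 5 as the values were deposited. With each library rescaled to the same sum the median over counted genes was -0.070, and the 5 remained above 0, between 0.016 (Irx2) and 0.60 (Irx3). Nothing particular to the family is read from the direction. With 1 library a group this describes 2 libraries.

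In the authors' deposited table none of the 5 is called significant at P2.5. The log2 fold change in the authors' deposited table, computed with no pseudocount, is 0.77 for Irx3 with a standard error of 0.29 implied by the test statistic, and 0.48 with 0.32 for Irx5. The authors' deposited table gives 0.39 with 0.27 for Irx4, 0.28 with 0.34 for Irx1 and 0.18 with 0.33 for Irx2. Of the 5, only the Irx3 value of the authors' deposited table exceeded 2 of these standard errors, and its q-value, adjusted over the table, is 0.473. Counting error alone would be narrower. For Irx3, with about 2660 fragments in dKO and 1393 in dHET, the 95% interval from the estimated fragment numbers was 0.68 to 0.86, and it covers counting error only, not differences between animals.

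The second comparison asked the same of fetal hearts. At E15.5 the family went both ways, and as the values were deposited each of the 5 changes was smaller in size than at P2.5. Irx3 (0.34), Irx4 (0.19) and Irx5 (0.083) were higher in dKO, and Irx1 (-0.23) and Irx2 (-0.068) were lower. These 5 directions were the same under every scaling, pseudocount and base composition setting tried at E15.5. The size order between stages was not the same for Irx1 and Irx2. With each library rescaled to the same sum, Irx1 was at 0.12 (P2.5) and -0.26 (E15.5), and Irx2 at 0.016 and -0.074. Their E15.5 changes were then the larger in size, as they were after adjustment for GC content and length. The summed E15.5 level was 59.4 FPKM in dKO and 54.2 in dHET, a ratio of 1.10.

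None of the 5 reached 1.5-fold in either direction at E15.5. Of 8308 counted genes 0.494% passed it on the higher side (0.487% with the minimum of 1 FPKM) and 0.566% on the lower side. A change above 0, seen in 3 of the 5, was found in 46.3% of counted genes (47.6% with the minimum of 1 FPKM). The median change was 0.083 over the 5 genes and -0.012 over the counted genes. Irx3 had a larger change than 97.4% of these genes, and Irx1 than 5.54%. The authors' deposited table gives an E15.5 log2 fold change of 0.37 for Irx3 with an implied standard error of 0.21, and -0.27 with 0.24 for Irx1. For Irx5 (0.095 with 0.22) and Irx2 (-0.078 with 0.22) it lies within 1 standard error of 0 in the deposited table. The counting intervals, -0.0059 to 0.20 for Irx5 and -0.18 to 0.021 for Irx2, also include 0. They cover counting error only, not differences between animals. All 5 deposited values, with Irx4 at 0.20 (implied standard error 0.16), lay within 2 standard errors of 0 at E15.5. The authors call none of the 5 significant at E15.5 either.

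**Figure D2:**
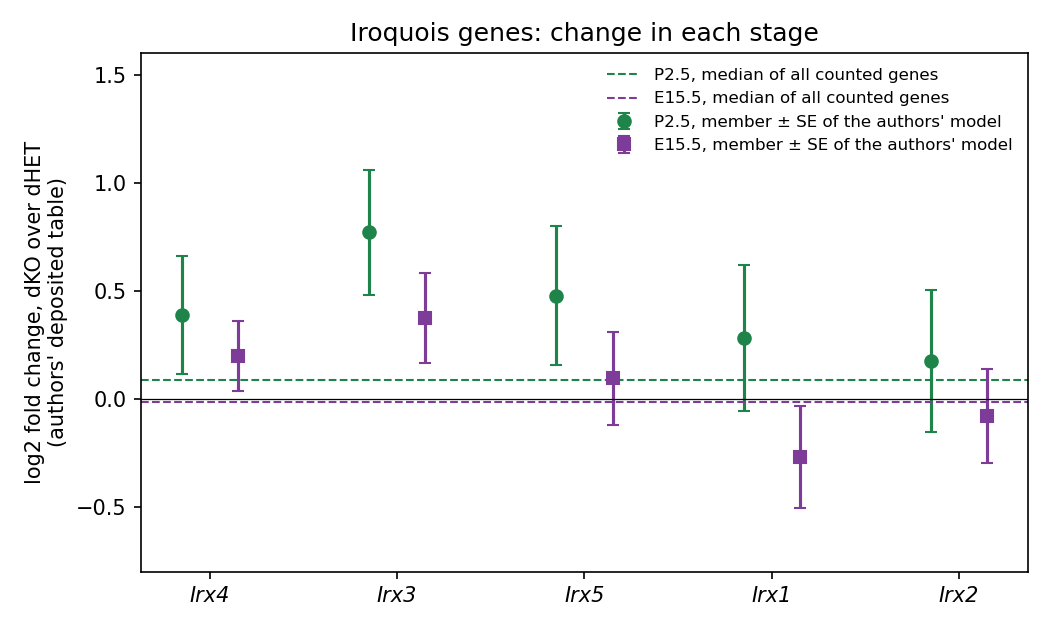
Points show the log2 fold change of dKO over dHET from the authors' deposited table for each Iroquois gene, at P2.5 (green circles) and E15.5 (purple squares), with bars for the standard error implied by the authors' test statistic. Dashed lines give the median of all counted genes at each stage, and Irx3 has the highest value at both stages (P2.5 0.77, E15.5 0.37).

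The 2 stages have no library in common, but each was scaled separately and the sexes differ at P2.5, so the changes are set side by side without a test. Irx3 had the largest change of the family at both (0.73 at P2.5 and 0.34 at E15.5), and Irx2 and Irx1 took the last places at both. Irx3 and Irx5 of the one cluster, with Irx4 of the other, were on the higher side at both.

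Ratios between genes of one library do not depend on how that library was scaled. Irx3 was at 0.422 of the Irx4 level in dKO and 0.324 in dHET at P2.5, and at 0.364 in dKO and 0.323 in dHET at E15.5. Irx3 was at 2.38-fold the Irx5 level in dKO and 1.94-fold in dHET at P2.5, and at 1.49-fold in dKO and 1.23-fold in dHET at E15.5. Its share of the summed Iroquois FPKM was 22.3% in dKO and 17.8% in dHET at P2.5, and 18.1% in dKO and 15.3% in dHET at E15.5. The Irx3 transcript was thus a larger part of the family in the dKO library at both stages. The Irx5 to Irx4 ratio was 0.177 in dKO and 0.167 in dHET at P2.5, and 0.244 in dKO and 0.262 in dHET at E15.5, on opposite sides at the 2 stages. Irx1 stood lower against Irx4 in the dKO libraries, at 0.151 of its level in dKO and 0.163 in dHET for P2.5, and at 0.189 in dKO and 0.262 in dHET for E15.5.

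Iroquois transcripts are rich in G and C, and in these tables the change of a gene went with its base composition. The longest annotated transcripts hold between 56.8% (Irx2) and 63.7% (Irx1) G and C, with Irx3 at 63.3%, Irx4 at 60.9% and Irx5 at 57.7%. The median over counted genes of the P2.5 table was 50.9%. Across genes, which are not independent replicates, Pearson's r between change and GC content was 0.356 over 8080 genes for P2.5 and 0.180 over 8193 genes for E15.5. The part of base composition in the Iroquois values was not tested.

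At P2.5 genes within 2 percentage points of the GC content of Irx1 had a median change of 0.25 (155 genes, quartiles 0.13 and 0.42), which equals the change of Irx1 itself. Around Irx2 the median was 0.20 (1625 genes, quartiles 0.043 and 0.34), so Irx2 lay below it. Around Irx4 it was 0.23 (603 genes, quartiles 0.076 and 0.38) and around Irx5 0.20 (1431 genes, quartiles 0.052 and 0.37). Irx4 lay inside the quartiles of genes of like composition and Irx5 just above them. Irx3 lay well above its own window, which had a median of 0.25 over 204 genes and quartiles of 0.12 and 0.40. After a linear fit on GC content and length, added after seeing the data, the P2.5 change was 0.42 for Irx3, below 1.5-fold, 0.22 for Irx5 and 0.12 for Irx4. At E15.5 the composition windows had medians between 0.028 and 0.046. The fitted changes were 0.28 for Irx3, 0.15 for Irx4, 0.050 for Irx5, -0.095 for Irx2 and -0.30 for Irx1.

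**Figure D3:**
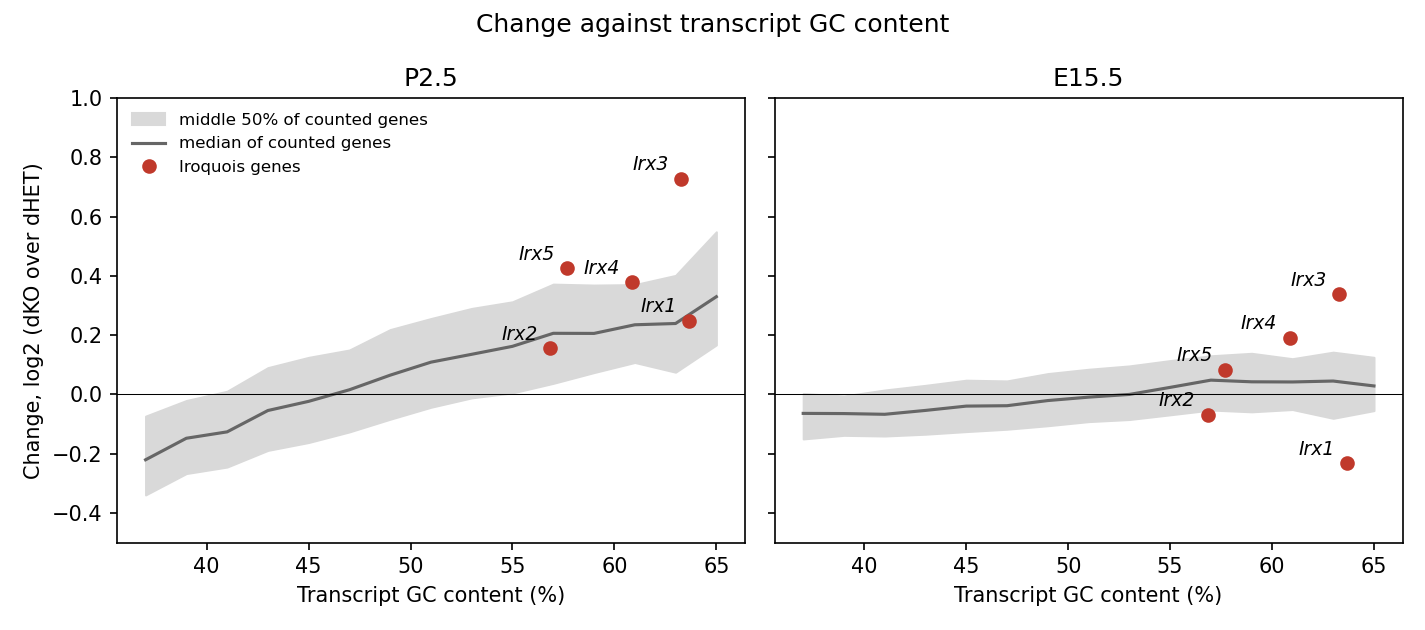
The change on the log2 scale is plotted against transcript GC content at P2.5 (left) and E15.5 (right), with the median of counted genes as a line, the range between their quartiles in grey in bins of 2 percentage points, and the 5 Iroquois genes in red. At P2.5 Irx1 and Irx2 lie inside the grey band, Irx4 (0.38) at its upper edge, and Irx5 (0.42) and Irx3 (0.73) above it. At E15.5 Irx3 (0.34) and Irx4 (0.19) lie above the band, Irx1 (-0.23) and Irx2 (-0.068) below it, and Irx5 (0.083) inside it.

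The genes of each cluster stand far apart, and their neighbours allowed the rest of each locus to be examined. Coordinates are those of the deposited tables on mouse build mm9. Irx3 (chromosome 8, 94322424 to 94325273) and Irx5 (chromosome 8, 94881695 to 94885355) are separated by 556.4 kb, and Irx6 (chromosome 8, 95198301 to 95203979) lies 312.9 kb beyond. Irx1 (chromosome 13, 72095680 to 72101171), Irx2 (chromosome 13, 72766426 to 72771642) and Irx4 (chromosome 13, 73397945 to 73407068) are separated by 665.3 kb and 626.3 kb. No stretch of 100 bases, the read length, was shared between the annotated transcripts of any of these genes, and shared stretches of 50 bases made up at most 1.74% (Irx3).

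Around Irx3 and Irx5, the other counted genes within 1 Mb of the cluster lay near 0. Of 4 such genes, none was 1.5-fold higher or lower at either stage. Their changes ran from -0.20 to 0.041 at P2.5 and from -0.15 to 0.035 at E15.5. Fto, the demethylase gene whose introns hold enhancers of Irx3, was at 22.8 FPKM in dKO and 22.2 in dHET at P2.5 and at 28.7 in dKO and 28.1 in dHET at E15.5. The matrix protease gene Mmp2, on the other side, was at 45.1 in dKO and 45.9 in dHET at P2.5.

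The long noncoding RNA gene 4933436C20Rik, which RefSeq lists under the name Crnde, lies 1.7 kb from Irx5. It had 2.93 FPKM in dKO and 1.35 in dHET at P2.5, and 1.93 in dKO and 1.42 in dHET at E15.5. The changes were 0.74 and 0.27, beside 0.42 and 0.083 for Irx5. This gene was singled out after its values were seen. It rests on about 181 fragments in dKO and 75 in dHET at P2.5, and the authors' deposited table gives a log2 fold change of 1.12 with an implied standard error of 0.52 and a q-value of 0.908.

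Around Irx1, Irx2 and Irx4 the neighbours were on the higher side at P2.5 in 8 of 9 counted genes, with a median of 0.27, and in 4 of 9 at E15.5, with a median of -0.0068. Of all counted genes 63.2% had a change above 0 at P2.5 and 46.3% at E15.5, with medians of 0.083 and -0.012. The respiratory chain gene Ndufs6, next to Irx4, was at 169.7 FPKM in dKO and 134 in dHET at P2.5. Nkd2 (chromosome 13, 73956776 to 73985079), an inhibitor of Wnt signalling 549.7 kb beyond Irx4, was the only counted neighbour past 1.5-fold on the scale with the pseudocount, with a change of 1.34 (P2.5), against 0.57 (E15.5). It had 14.3 FPKM in dKO and 5.06 in dHET at P2.5 and 6.01 in dKO and 3.73 in dHET at E15.5, and the authors' deposited table calls it significant at P2.5. The noncoding gene D430050G20, which lies 0.4 kb from Irx2, was at 1.16 FPKM in dKO and 0.946 in dHET at P2.5 and at 2.19 in dKO and 2.52 in dHET at E15.5. Its changes of 0.15 and -0.14 stood beside 0.15 and -0.068 for Irx2.

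**Figure D4:**
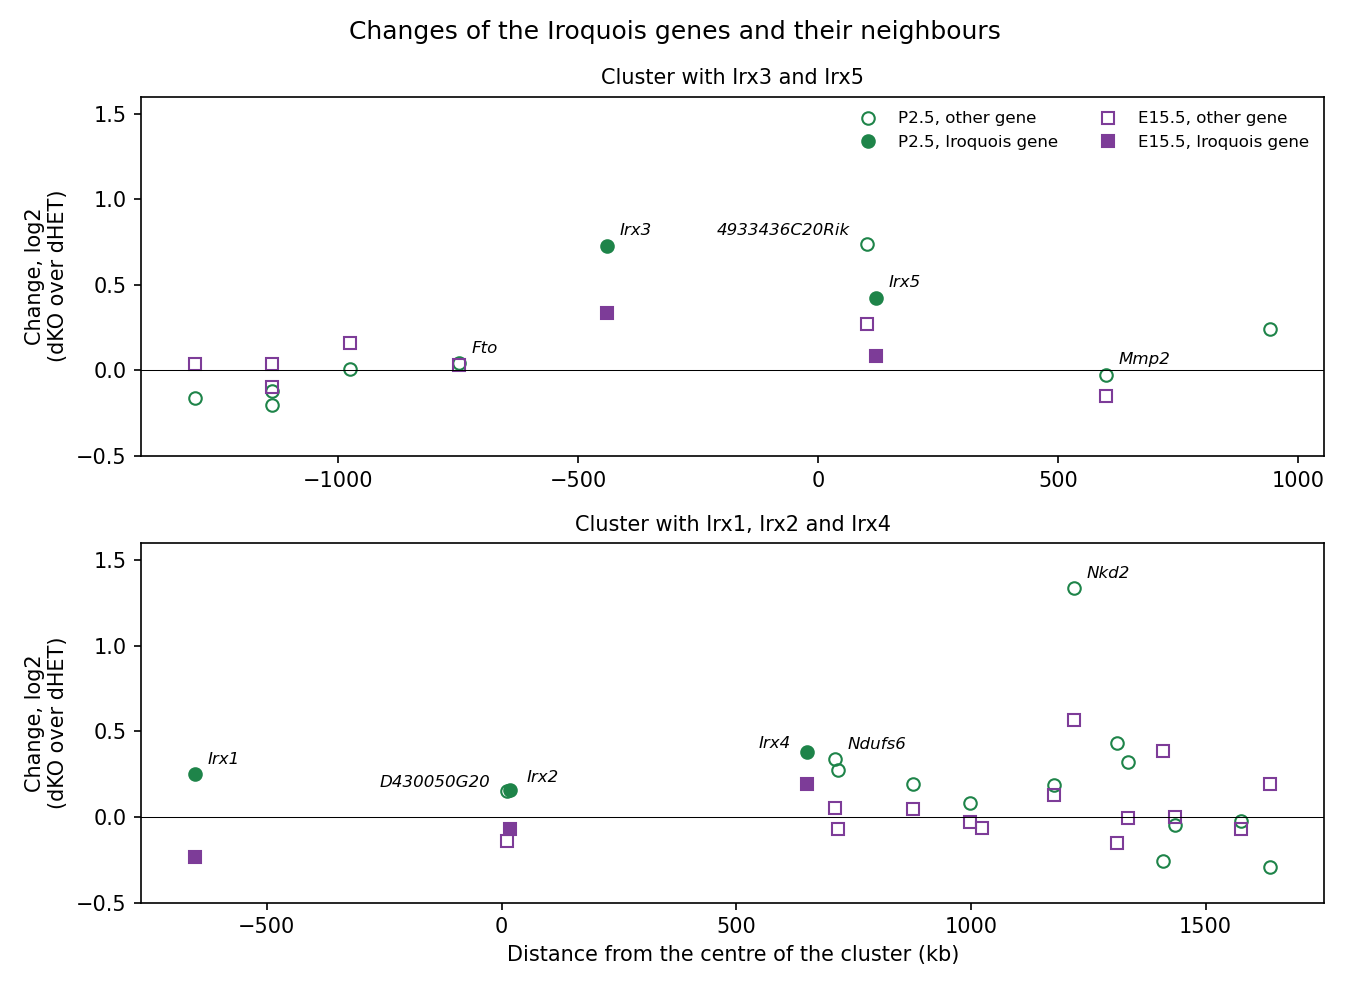
The change on the log2 scale of the Iroquois genes (filled) and of other genes with an FPKM of at least 1 (open) is plotted against distance in kb from the centre of each cluster, for P2.5 (green circles) and E15.5 (purple squares). In the upper panel the P2.5 points of Irx3, Irx5 and 4933436C20Rik stand above all other P2.5 points, the next being Ces1d at 0.24, while the E15.5 point of Irx5 (0.083) lies below that of Rpgrip1l (0.16), and in the lower panel Nkd2 has the highest point (1.34 at P2.5).

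Promoter sequence was at hand for 3 of the 5 genes, and it is shown to set the Irx3 promoter beside those of the highest (Irx4) and one of the lowest (Irx2) transcripts. The windows run from 250 bases before to 50 bases after the transcript start, from RefSeq on build GRCm38.p6, 5' to 3', with capitals for the GC box CCGCCC on either strand.
Irx3, chr8:91801605-91801904, minus strand: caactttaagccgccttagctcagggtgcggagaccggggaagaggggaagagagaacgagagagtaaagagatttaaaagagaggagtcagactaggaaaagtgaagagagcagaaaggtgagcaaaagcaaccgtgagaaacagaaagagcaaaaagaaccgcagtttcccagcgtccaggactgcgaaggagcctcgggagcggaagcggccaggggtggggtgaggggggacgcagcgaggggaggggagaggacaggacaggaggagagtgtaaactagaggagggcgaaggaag
Irx4, chr13:73260247-73260546, plus strand: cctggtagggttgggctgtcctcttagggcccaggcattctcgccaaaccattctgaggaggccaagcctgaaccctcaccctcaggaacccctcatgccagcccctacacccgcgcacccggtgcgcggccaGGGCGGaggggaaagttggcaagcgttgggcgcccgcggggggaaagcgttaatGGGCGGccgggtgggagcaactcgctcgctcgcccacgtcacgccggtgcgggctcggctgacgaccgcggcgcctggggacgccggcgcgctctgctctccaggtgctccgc
Irx2, chr13:72628570-72628869, plus strand: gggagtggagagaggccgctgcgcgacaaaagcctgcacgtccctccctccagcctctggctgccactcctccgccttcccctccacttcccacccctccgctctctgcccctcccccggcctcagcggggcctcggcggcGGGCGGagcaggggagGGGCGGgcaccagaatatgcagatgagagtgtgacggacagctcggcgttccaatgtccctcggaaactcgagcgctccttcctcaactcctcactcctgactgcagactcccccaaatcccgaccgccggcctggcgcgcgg
The Irx3 window held 14 CG dinucleotides and 0 GC boxes, against 31 and 2 in Irx4 and 25 and 2 in Irx2. Of 32851 promoter windows of all genes, 35.7% held a GC box, and the median number of CG dinucleotides was 7. The TATA box TATAAA, which 13.6% of windows hold, and the Iroquois binding word ACANNTGT, which 7.38% hold, were in none of the 3 windows on either strand. The E box CANNTG, in 72.3% of all windows, occurred once in Irx4 and once in Irx2 and not in Irx3. A match or its absence describes these letters only.

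The annotated 3' UTRs of the 5 genes held no match to the seed of miR-1. The words searched on the sense strand were ACATTCC and CATTCCA, which pair with the miR-1 seed, and which 9.13% and 10.8% of 19915 genes carry in their longest 3' UTR (GENCODE M1 on NCBIM37, the assembly of mm9). Of the 5 genes 0 carried either word, including Irx5, whose 3' UTR is annotated with 556 bases. The shorter words CATTCC and ACATTC, carried by 27.4% and 26.7% of all genes, were also in none of them. Irx6, the lowest of the family in each library, held ACATTC in its 1303 bases. The 3' UTRs of Irx3 (362 bases), Irx1 (384), Irx5 (556) and Irx4 (586) are shorter than the median of 893 bases over all genes, and that of Irx2 (1177) is longer. The comparison word GGACCAA, for miR-133, was likewise in none of the 5 and in 7.43% of all genes. Sites outside the annotated ends, and sites without these words, were not covered.

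Genes that have been described downstream of Iroquois factors were then examined, as a list of 11 chosen with earlier results of these data known. At P2.5, 7 were counted, of which 2 passed 1.5-fold on the higher side (Gja1 and Nppa) and 0 on the lower. At E15.5, 8 were counted, with 1 on the higher side (Nppa) and 1 on the lower (Cxcl12), or 2 and 1 after centring on the median change, beside the shares of all genes given above. The list medians were 0.18 and 0.043.

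Kcnd2 encodes a channel subunit of the transient outward potassium current and is repressed by Irx5 in mouse ventricle. It had 0.546 FPKM in the dKO and 1.41 in the dHET library at P2.5, and 0.622 in the dKO and 1.51 in the dHET library at E15.5. The dKO level was 0.387 of the dHET level at P2.5 and 0.411 at E15.5, and the change was -0.64 and -0.63, on a scale that understates changes at such low levels. Kcnd2 was under the FPKM of 5 used for counting. With a minimum of 1 it was past 1.5-fold lower at both stages, as were 1.33% of genes (P2.5) and 0.726% (E15.5). The values rest on about 141 fragments in dKO and 324 in dHET at P2.5, and 333 in dKO and 674 in dHET at E15.5. For Kcnd2 the authors' deposited table gives a log2 fold change of -1.37 (implied standard error 0.47) at P2.5 and -1.28 (0.33) at E15.5, with q-values of 0.294 and 0.0138, the second called significant. Its GC content is 44.4%, and the median of genes within 2 points of it was -0.032 (P2.5) and -0.038 (E15.5). Kcnd3, which encodes a related channel, was at 0.501 FPKM in dKO and 0.359 in dHET at P2.5. Kcnip2, their accessory subunit, was at 41.6 in dKO and 44.6 in dHET at P2.5.

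Gja1 and Gja5 encode the gap junction proteins connexin 43 and connexin 40, and Irx3 represses the first and raises the second in the mouse conduction system. Gja1 was at 567 FPKM in dKO and 363 in dHET at P2.5, a change of 0.64, and at 304 in dKO and 203 in dHET at E15.5, a change of 0.58. Gja5 was at 15.05 in dKO and 11.9 in dHET at P2.5 (0.32), and at 45.5 in dKO and 40.1 in dHET at E15.5 (0.18). Both connexins thus lay on the higher side of the dKO library at both stages. Gja1 is itself a described target of miR-1.

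Nppa, the atrial peptide gene, had the largest change of the list at both stages, 2.48 at P2.5 and 0.74 at E15.5. Hand1, a ventricular transcription factor gene whose level was described as reduced without Irx4, was at 1.66 FPKM in dKO and 1.06 in dHET at P2.5, and at 6.001 in dKO and 6.48 in dHET at E15.5. The chemokine gene Cxcl12 was on the lower side at both, with 22.2 FPKM in dKO and 26.7 in dHET at P2.5 and 47.3 in dKO and 73.8 in dHET at E15.5. Bmp10, a growth factor gene repressed by Irx3 and Irx5 in the endocardium, was at 15.1 in dKO and 15.6 in dHET at E15.5 and under 1 FPKM at P2.5.

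**Figure D5:**
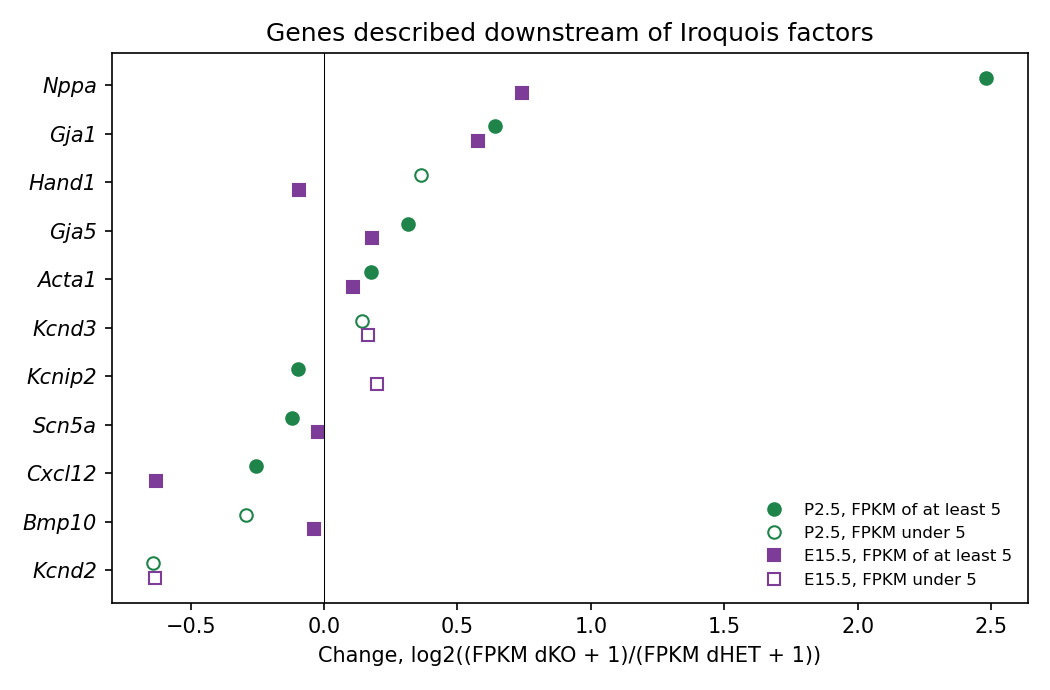
The change on the log2 scale of 11 genes described downstream of Iroquois factors is shown at P2.5 (green circles) and E15.5 (purple squares), with open symbols for genes under an FPKM of 5 in both libraries. Kcnd2 is at -0.64 and -0.63, Gja1 at 0.64 and 0.58, and Nppa at 2.48 and 0.74, for P2.5 and E15.5 in turn.

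Of 7 genes described as partners of Iroquois proteins, 4 were counted at each stage and 0 passed 1.5-fold in either direction. With shares of all genes of 3.59% higher and 1.15% lower at P2.5, and 0.494% and 0.566% for E15.5, a count of 0 among 4 says nothing particular about the partners. Smyd1, the muscle methyltransferase through which Irx5 represses Kcnd2, was at 178 FPKM in dKO and 142 in dHET at P2.5, and at 118 in dKO and 104 in dHET at E15.5. Nkx2-5, a core cardiac factor that binds with Irx3 in mouse, was at 86.8 in dKO and 75.7 in dHET at P2.5, and Tbx5, its partner, at 6.19 in dKO and 7.16 in dHET.

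The other TALE homeobox genes, a set of 13 that includes the Meis and Tgif genes and Irx6, gave a comparison within the protein class. Their median change was -0.030 over 6 counted genes for P2.5 and -0.037 over 8 for E15.5, against 0.38 and 0.083 for the Iroquois genes, and 0 passed 1.5-fold. Tgif1, a repressor, was at 2.19 in dKO and 3.61 in dHET at P2.5 and at 5.04 in dKO and 6.69 in dHET at E15.5. At P2.5 Tgif1 was under the FPKM of 5 and so not counted. Its deposited log2 fold change there is -0.72 with an implied standard error of 0.51. GC content in this set ran from 44.5% (Mkx) to 58.6% (Meis3), the latter above that of Irx2 and Irx5. The P2.5 change was -0.016 for Meis1 (45.8%) and -0.051 for Pbx2 (55.6%). It was 0.012 for Meis3, which was under the FPKM of 5. The part of GC content in the difference to the Iroquois genes was not tested.

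A bulk library cannot tell apart fewer cells of a type and less RNA per cell, and the cell types in which Iroquois genes are known were therefore read beside them. Ventricular muscle, the place of Irx4, had 0 of 6 counted markers past 1.5-fold on the higher side and 1 on the lower side at P2.5 (Pln, change -0.79), and 0 and 0 of 6 at E15.5. The summed FPKM of the list was 14966 in dKO and 12685 in dHET at P2.5 and 5526 in dKO and 5791 in dHET at E15.5. These sums cover 7 genes at P2.5 and 6 at E15.5, where Myh7 was left out because of its test flag. Of the atrial muscle markers 4 of 7 were higher at P2.5, where 3.59% of all counted genes were, and 2 of 6 at E15.5, where 0.494% were. With a minimum of 1 FPKM, 4 of 10 were higher and 1 lower at P2.5, against 3.4% and 1.33% of all genes. The median of the atrial list was then 0.065 in place of 1.16. The lower one was the potassium channel gene Kcnj3, with 0.811 FPKM in dKO and 2.43 in dHET. The summed level of the atrial list was 1282 FPKM in dKO and 286 in dHET at P2.5, of which Nppa alone made up 1021 in dKO and 182 in dHET. At E15.5 the sum was 2375 in dKO and 1744 in dHET, of which Nppa made up 1297 in dKO and 775 in dHET.

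Conduction system genes, among which Irx3 acts, had 1 of 12 higher at P2.5, which was Gja1, and 0 of 12 at E15.5, with 0 lower at both. After centring on the median change the higher counts were 0 (P2.5) and 1 (E15.5). Cacna1g, also on the conduction list, was left out at E15.5 because of its test flag. Of all counted genes 3.59% were higher and 1.15% lower at P2.5, and 0.494% higher and 0.566% lower at E15.5. The gap junction gene Gjd3, under the count's minimum, was at 3.78 FPKM in dKO and 0.831 in dHET at P2.5 and at 0.437 in dKO and 0.470 in dHET at E15.5. The pacemaker channel gene Hcn4 was at 3.14 in dKO and 2.06 in dHET at P2.5 and at 5.65 in dKO and 4.32 in dHET at E15.5. Endocardial and endothelial genes, another known place of Irx3 and Irx5, had 0 of 11 and 0 of 12 past 1.5-fold, with medians of 0.13 (P2.5) and 0.088 (E15.5) and a summed level of 479 FPKM in dKO and 421 in dHET at P2.5 and 371 in dKO and 343 in dHET at E15.5. Of the genes in these 4 lists 1, in the conduction list, was at 0 in the P2.5 dHET library, and the part of these cell types in the Iroquois values was not tested.

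Smooth muscle genes had 3 of 5 higher at P2.5 and 1 higher and 1 lower of 5 at E15.5. With a minimum of 1 FPKM, 3 of 7 were lower at E15.5 and the median was -0.29 in place of 0.30. These were Myh11 (0.915 FPKM in dKO and 6.95 in dHET), Actg2 (1.08 in dKO and 4.47 in dHET) and Lmod1 (0.410 in dKO and 2.33 in dHET). Epicardial genes had 0 of 3 past 1.5-fold at P2.5 and 1 of 5 lower at E15.5 (Krt19, change -0.61). Of the general heart muscle genes 2 of 7 were higher at P2.5, Tnnc1 (0.83) and Tnnt2 (0.74), and 0 of 8 at E15.5. Myh6, also on that list, was left out at P2.5 because of its test flag. The summed FPKM of smooth muscle genes at P2.5 was 1804 in dKO and 720 in dHET, of which Acta2 alone made up 1692 in dKO and 658 in dHET, while Tagln, Actg2 and Lmod1 had changes below 0. The lung, liver and thymus lists had no counted gene.

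For each Iroquois gene the 3 transcripts with the nearest profile over the 4 libraries were sought among 8808 genes, by the Euclidean distance of log2(FPKM + 1) after the mean of each gene was taken away. The 4 points span separately scaled tables, and with so few points many genes lie close. Nearest to Irx3 were 1810046J19Rik (distance 0.068), Cd74 (0.085) and Fbxl22 (0.090), the last a muscle F-box gene at 53.7 FPKM in dKO and 32.0 in dHET at P2.5. Nearest to Irx4 were Mrto4 (0.023), Spsb3 (0.037) and Apba3 (0.039), and nearest to Irx5 were Ppp2r4 (0.014), Lzts2 (0.022) and Isoc2a (0.027). Irx1 was nearest to Yars2 (0.055), Anp32a (0.061) and Rpl22 (0.069), and Irx2 to Rtkn (0.013), Rnf25 (0.014) and Copz1 (0.019). Within the family the closest pair was Irx1 and Irx2 (0.18), and the nearest relative of Irx3 was Irx4 (0.28). Many other genes lay nearer than these relatives. There were 286 nearer to Irx1 than Irx2 was, and 1178 nearer to Irx2 than Irx1 was. For Irx3 and Irx4, 91 genes were nearer to Irx3 and 451 nearer to Irx4 than the other of the pair.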

How the data were processed

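The Iroquois genes and the gene lists were chosen with earlier results of these data known. RNA of 4 whole hearts' libraries was poly-A selected after TRIzol extraction, per the labels' protocols, and read with 100 bases, single end at P2.5 and paired at E15.5. The authors' deposited values are FPKM, 1 table per stage. The submitters' processing notes name TopHat, Bowtie, Cufflinks and the build mm9, without versions or settings, and strand use is not given in the sources used here. The deposited tables also hold a log2 fold change, a test statistic (a score), p-values and q-values between the 2 libraries. The E15.5 fold change was turned to dKO over dHET. A standard error was taken as fold change over test statistic.

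At each stage, 86 rows displaced by commas were realigned, and 175 (P2.5) or 178 (E15.5) rows whose test flag was neither OK nor NOTEST were left out, none of them an Iroquois gene. Changes used a pseudocount of 1, and genes that reached 5 FPKM in one or both libraries of a stage were counted at 1.5-fold. Scaling totals were estimated from the value of 1 fragment in low genes with 1 annotated transcript, and need not equal the mapped reads. Fragment numbers are these totals times FPKM and transcript length. No test was made, since each group is 1 library. Named were the Iroquois genes, Irx6, Kcnd2, Gja5, Gja1, Nppa and Hand1, per list and stage some of the 2 highest and 2 lowest changes among genes of at least 1 FPKM, neighbours past 1.5-fold and the nearest profiles; genes outside this rule serve as context. Scripts (Python 3.11.15, pandas 2.3.3, numpy 2.4.6) were tested on simulated data.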

Additional observations from a re-analysis of the deposited data

Results flagged for a closer look

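Irx1 and Irx2 lay on opposite sides at the 2 stages. For Irx1 the change was 0.25 (P2.5) and -0.23 (E15.5), and for Irx2 0.15 (P2.5) and -0.068 (E15.5). After adjustment for GC content and length both genes lay below 0 at both stages, Irx1 at -0.069 (P2.5) and -0.30 (E15.5) and Irx2 at -0.035 (P2.5) and -0.095 (E15.5). Hand1 had opposite directions in the deposited values, at 0.36 and -0.095. With 1 library per group the difference between the stages was not tested.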

How the results depend on the processing

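No paired analysis was possible because each group is 1 library, and no library could be left out. The count of Iroquois genes at least 1.5-fold higher at P2.5 was 1, and it stayed at 1 with pseudocounts of 0.1 and 5, centring on the median change, rescaling each library to a sum of 1000000, and FPKM minimums of 1, 10 and none. With the fold lowered to 1.2 the count was 3 for P2.5 and 1 for E15.5. The share of all counted genes past 1.2-fold was not computed, so nothing particular to the family is read from these counts. The upper quartile of the change over counted genes was 0.25 (P2.5) and 0.084 (E15.5). After the linear adjustment for GC content and length, chosen after seeing the data, the P2.5 count at 1.5-fold was 0, and the Irx3 change was 0.42. Over these settings the P2.5 change of Irx3 ran from 0.42 to 0.77, that of Irx5 from 0.22 to 0.48 and that of Irx4 from 0.12 to 0.39, while Irx1 (-0.069 to 0.28) and Irx2 (-0.035 to 0.18) were below 0 under the adjustment alone. Rescaling put the P2.5 median over counted genes at -0.070, against 0.083. Centring put Gja1 under 1.5-fold at P2.5 and past it at E15.5. The search of any annotated 3' UTR in place of the longest left 0 of the 5 genes with a miR-1 word. The E15.5 counting intervals of Irx5 and Irx2 include 0, and they do not cover differences between animals.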
